A study of Mus musculus with 6 samples.

Results

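The NRF2, glutathione and antioxidant defence genes were examined in cultured neonatal mouse cochleae after hair cell (HC) damage. The set held 42 genes, chosen by symbol from the 24421 gene symbols of the deposited count table. All 42 were found, and all 42 were among the 15988 genes with enough reads to be tested.

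Bulk RNA-seq was performed on 6 libraries, 3 control and 3 neomycin, from wild-type explants of postnatal day 2 mice whose strain was not stated. The explants were precultured for 12 h, and neomycin, an aminoglycoside antibiotic toxic to HCs, was given at 1 mM for 6 h. Culture then went on for 5 days in both groups with 10 μM EdU, a thymidine analogue that marks cells making DNA. Each library was a pool of 6 to 8 cochleae, prepared for culture without the stria vascularis anlage, modiolus and tectorial membrane. The sample labels carried the same neomycin protocol for all 6 libraries and named 3 of them control, and those 3 are described here as not exposed to neomycin. The samples were taken days after a short exposure, from whole explants that still held supporting cells (SCs), mesenchyme, glia and macrophages beside the HCs. The libraries held between 50471116 and 66068108 counted reads, and the 42 genes between 178 and 190238 reads in any library. Levels are given as CPM, read counts relative to the library total after scaling by the trimmed mean of M-values (TMM).

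NRF2, encoded by Nfe2l2, is a transcription factor held at low activity by KEAP1, which marks it for degradation. Oxidants and electrophiles modify cysteines of KEAP1, and NRF2 then accumulates, pairs with small MAF proteins and binds the antioxidant response element (ARE) in DNA. Its targets make glutathione, reduce thioredoxin, detoxify quinones and electrophiles, and store iron. Aminoglycosides are known to raise reactive oxygen species in cochlear HCs, and for this reason antioxidant genes are of interest in this tissue. Because KEAP1 acts on the NRF2 protein, the Nfe2l2 transcript is not a measure of NRF2 activity.

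The core of the ARE, TGACNNNGC, was searched on both strands of the RefSeq promoter windows of GRCm38.p6. Each window ran from 250 bases before to 50 bases after an annotated start, and a gene could have several starts. A window was at hand for 36 of the 42 genes, and 9 of these 36 (25%) held the core, against 14% of the 27025 genes with a window. Counted by window, the core was in 20% of 45 windows of these genes and in 12.4% of all windows. No window was found for Hmox1, Gclc, Gsr, Prdx6, Sod3 and Gsta4. The 6 matches shown here, in capitals, belong to genes that were higher after neomycin (Prdx1, Mgst1), lower (Txnrd1) or past no threshold (Gclm, Srxn1, Nfe2l2), so that the same letters can be seen beside each kind of result. Each is printed along the gene's own strand, so a match on the opposite strand appears as the reverse complement of the core. The Mgst1 and Txnrd1 matches lay inside the annotated spans of those genes, which start at 138140316 and 82833951, near a later start. The other 3 matches lay in G6pdx, Mt2 and Sod1.
Prdx1, chr4:116685456-116685484: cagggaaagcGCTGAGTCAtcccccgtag
Mgst1, chr6:138140461-138140489: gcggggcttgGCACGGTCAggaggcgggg
Txnrd1, chr10:82859104-82859132: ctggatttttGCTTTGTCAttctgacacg
Gclm, chr3:122245413-122245441: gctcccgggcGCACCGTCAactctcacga
Srxn1, chr2:152105542-152105570: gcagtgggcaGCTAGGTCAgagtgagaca
Nfe2l2, chr2:75704885-75704913: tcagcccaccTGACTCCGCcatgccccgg
A match is a description of these letters only. Whether any of them is bound in the cochlea was not measured.

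A minority of the antioxidant genes differed after neomycin, and most of these differences were small. In edgeR's quasi-likelihood test with Benjamini-Hochberg adjustment over all genes, 11 of the 42 passed an adjusted p of 0.05, where 29.0% of all genes tested did. Of these, 9 rose (Txnrd2, Prdx1, Prdx2, Prdx4, Gpx4, Gpx7, Gpx8, Mgst1 and Fth1), beside 12.9% of all genes tested, and 2 fell (Gclc and Txnrd1), beside 16.1%. The other 31 did not pass. Only Prdx4 and Gpx7 also changed by more than 1.5-fold, both upward, beside 8.84% of all genes (2.24% higher and 6.6% lower). The median log2 fold change (log2 ratio of neomycin to control) was 0.14 over the 42 genes and 0.00 over all genes tested, with 27 of the 42 above 0 and 15 below. Control and neomycin values did not overlap in 13 of the 42, against 43.5% of all genes. The share of the set that passed was thus close to the background, while more of the genes that passed were higher than lower.

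The count depended on single libraries. It was 7 without control 2, 7 without neomycin 2 and 18 without control 3, and across all genes it went from 4629 to 2567, 2518 and 5341 in the same fits and to 3001 without neomycin 3. The number that rose was 5, 5 and 16 in the first 3 of these fits, and the number that fell was 4 without control 1, where Slc7a11 and Gclm joined (adjusted p = 0.0333 and 0.0277, edgeR). Changes over 1.5-fold numbered 4 without control 3, with Mgst1 and Fth1 added, and 3 without control 1, with Slc7a11 added. Gclc, Txnrd1, Prdx4, Gpx7, Gpx8, Mgst1 and Fth1 passed in all 18 alternative fits, and these 7 were also the ones with an adjusted p under 0.01.

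**Figure D1:**
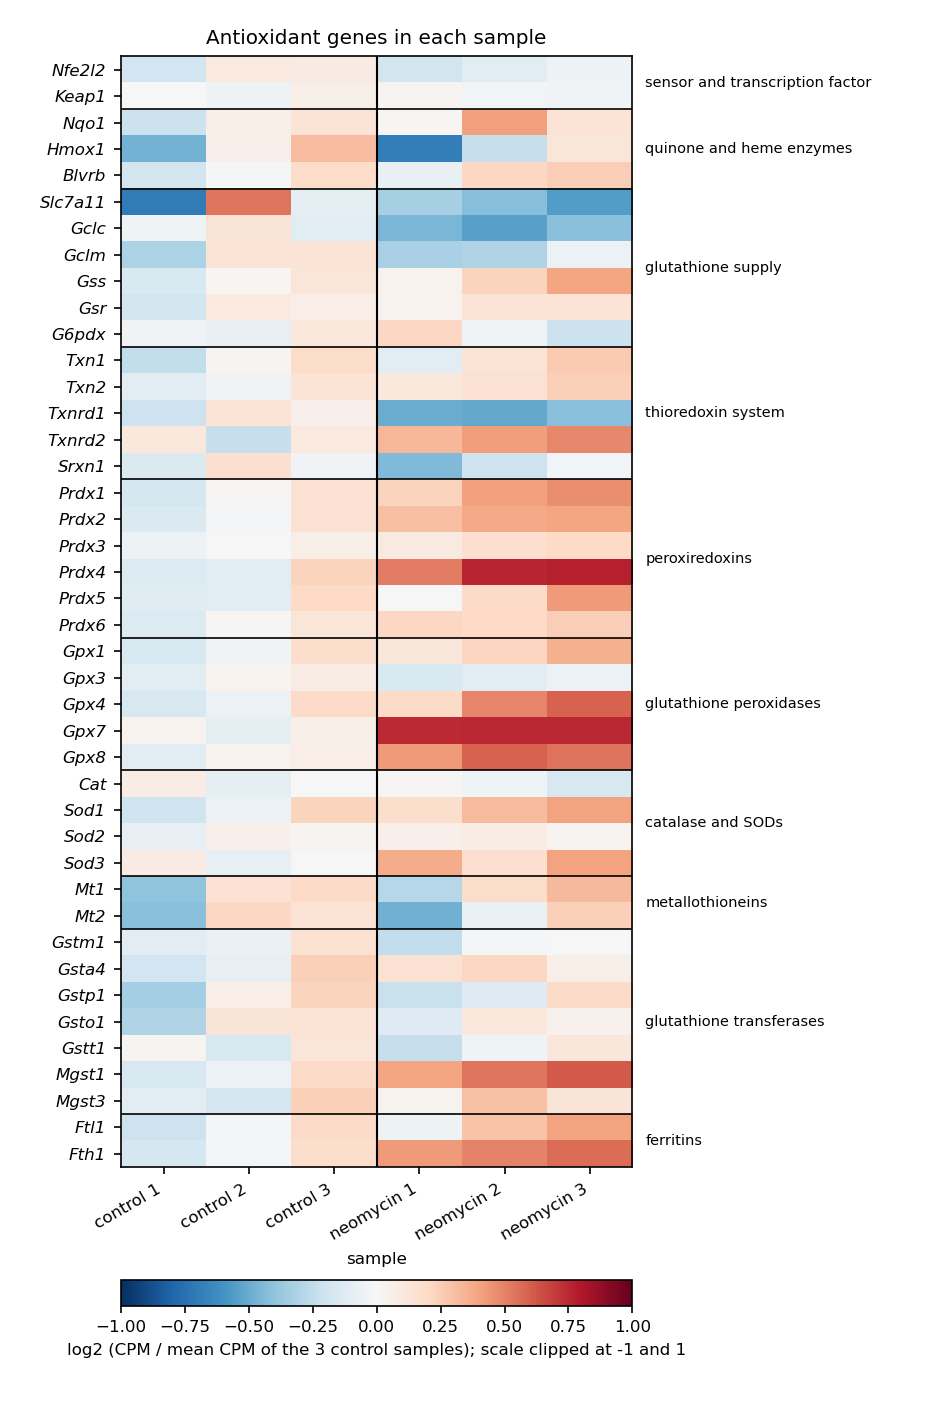
Each row is 1 of the 42 antioxidant genes, grouped by role, and each column 1 of the 6 libraries. Color gives log2 of CPM over the mean of the 3 control libraries. Prdx4, Gpx7, Gpx8, Mgst1 and Fth1 are red in all 3 neomycin libraries, and Gclc and Txnrd1 are blue in all 3. Hmox1, Mt1 and Mt2 vary within both groups, and Slc7a11 mainly within control.

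Transcript length moved with the response to neomycin across all genes, and the antioxidant genes are short. The 3966 shortest genes, with a median transcript of at most 1658.5 bases, had a median log2 ratio of 0.24, and the 3965 longest, of at least 3929.5 bases, a median of -0.21. Of the 42 genes, 27 were among these shortest genes and 2 among the longest, and their median length was 1508 bases, against 2626 for all genes tested. With the length trend of each library taken out, 8 of the 42 were higher (Prdx2, Prdx4, Gpx7, Gpx8, Sod2, Sod3, Mgst1 and Fth1) and 7 lower (Gclc, Txnrd1, Gpx3, Mt2, Gstm1, Gstp1 and Gstt1), where 19.3% of all genes passed (8.07% higher and 11.2% lower). The median of the set was then -0.08, and no member passed both thresholds. Txnrd2, Prdx1 and Gpx4 no longer passed (adjusted p = 0.0725, 0.0522 and 0.156, edgeR). What gave rise to the length trend was not tested, and length-corrected values are given beside the results that follow.

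**Figure D2:**
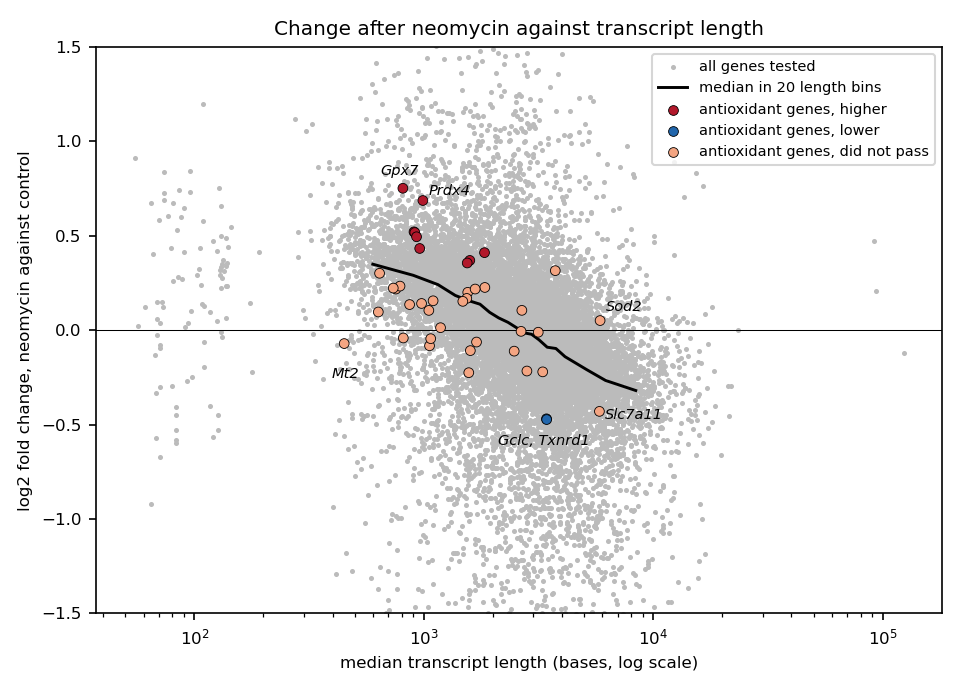
Log2 fold change after neomycin against median transcript length in bases, on a log axis, for all tested genes (grey) and the 42 antioxidant genes (red, higher; blue, lower; orange, did not pass). The black line joins medians of 20 length bins and falls with length. Gpx7 and Prdx4 lie above it, and Gclc and Txnrd1, which nearly coincide, lie below it. The plot leaves out 348 genes beyond 1.5 in either direction.

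Markers of several cell types differed between the groups. Over all genes tested, 12.9% rose and 16.1% fell. Of 14 HC markers, 13 fell, with summed levels of 640 to 806 CPM in control and 141 to 176 CPM after neomycin. Ocm, a calcium-binding protein of outer HCs, went from 303 ± 72.6 to 28.6 ± 2.94 CPM (SD, n = 3). Of 14 macrophage markers, 8 rose and none fell, with sums of 214 to 277 and 302 to 366 CPM. SC markers fell in 5 of 14 cases, mesenchyme and fibrocyte markers rose in 3 and fell in 2 of 11, and their sums did not overlap between groups, at 6696 to 7143 against 7514 to 7938 CPM and 7212 to 7898 against 8301 to 8375 CPM. Epyc, at 5531 ± 249 and 6385 ± 203 CPM (SD, n = 3), made up most of the SC sum and did not pass. Endothelial markers fell in 6 of 8 cases, neuronal markers rose in 2 and fell in 4 of 10, Schwann cell and glial markers rose in 1 and fell in 2 of 10, and stria and melanocyte markers fell in 1 of 7. The sums of these 4 lists were 282 to 315 against 267 to 318 CPM, 519 to 629 against 543 to 635 CPM, 282 to 329 against 320 to 339 CPM, and 128 to 135 against 117 to 119 CPM. A sum is weighted toward the most abundant markers of its list, so overlapping sums do not mean unchanged markers. The median log2 ratios of the 4 lists, in the same order, were -1.94, -0.62, 0.10 and 0.06, beside -1.80 for the HC list. No marker of these 8 lists was at 0 in all libraries. Of 10 erythroid markers, 8 were at 0 in all libraries, the globins with near-identical copies among them, and the sum was 0.231 to 0.406 CPM in control and 0.0931 to 0.226 CPM after neomycin. In bulk RNA, fewer cells of a type and less RNA per cell cannot be told apart. The part of these markers in the antioxidant results was not tested.

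The sensor and its transcription factor did not pass the test. Nfe2l2 was at 83.7, 102 and 101 CPM in control 1 to 3 and at 84.4, 88.8 and 92.4 CPM in neomycin 1 to 3. Its log2 fold change was -0.11 ± 0.09 (SE), with a 95% interval of -0.30 to 0.07 and an adjusted p of 0.351 (edgeR), and it was -0.13 with the length correction. The groups overlapped, since control 1 was the lowest of the 6. Keap1 was at 99.4, 95.9 and 103 CPM in control and at 101, 98.0 and 97.3 CPM after neomycin. Its log2 fold change was -0.01 ± 0.07, with an interval of -0.16 to 0.13 (adjusted p = 0.921, edgeR), and took either sign across the alternatives (0.04 with the length correction).

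Quinone and heme enzymes also did not pass. Nqo1, a quinone reductase often used as a readout of NRF2, was at 9.97, 12.1 and 12.7 CPM in control and at 11.8, 15.4 and 12.8 CPM after neomycin. The log2 fold change was 0.20 with an interval of -0.08 to 0.49 (adjusted p = 0.272, edgeR), and 0.05 with the length correction. Hmox1, which degrades heme and is also under BACH1 control, was at 85.6, 123 and 147 CPM in control and at 73.6, 101 and 129 CPM after neomycin. In both groups the libraries differed more from each other than the group means did, which were 119 ± 31.0 and 101 ± 27.9 CPM (SD, n = 3). The Hmox1 log2 ratio was -0.23 with an interval of -0.65 to 0.20 (adjusted p = 0.409, edgeR), and -0.37 with the length correction. Blvrb, a biliverdin and flavin reductase, had a log2 ratio of 0.14 ± 0.10, or -0.15 with the length correction, and passed in no alternative fit.

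Among the genes that supply glutathione, Gclc fell. It encodes the catalytic subunit of glutamate-cysteine ligase, the rate-limiting enzyme of glutathione synthesis, and lies on chromosome 9 (GRCm38, 77754535 to 77794485, plus strand). Gclc was at 45.7, 51.4 and 43.7 CPM in control and at 34.3, 32.2 and 35.2 CPM after neomycin, so that every control library was above every neomycin library. It fell by 0.47 on the log2 scale (SE 0.08, adjusted p = 0.00166, edgeR), and by 0.39 with the length correction (adjusted p = 0.00274). The modifier subunit Gclm had a log2 ratio of -0.22 with an interval of -0.49 to 0.05 (adjusted p = 0.198, edgeR). The cystine importer Slc7a11 was low and variable, at 3.01, 7.07 and 4.55 CPM in control and at 3.88, 3.63 and 3.31 CPM after neomycin. Its interval, from -0.99 to 0.13, was the widest of the 42, and the groups overlapped, with control 1 the lowest of the 6. Slc7a11 and Gclm passed in 1 alternative each, the fit without control 1, and had length-corrected values of -0.20 and -0.15.

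The enzymes that complete, reduce and fuel the glutathione pool did not pass. Gss, which adds glycine to complete glutathione, had a log2 ratio of 0.23 (adjusted p = 0.144, edgeR), and Gsr, which reduces oxidized glutathione, one of 0.11 (adjusted p = 0.370, edgeR). G6pdx, the entry enzyme of the pentose phosphate pathway that supplies NADPH, had the highest level of this group, in CPM and per kilobase. It was at 123, 119 and 136 CPM in control and at 145, 123 and 108 CPM after neomycin, where the neomycin libraries enclosed the control range. Its log2 fold change was -0.01 with an interval of -0.22 to 0.21. The length-corrected values were 0.12 for Gss, 0.11 for Gsr and 0.00 for G6pdx.

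The thioredoxin system held a member that fell and another that rose. Txnrd1, the cytosolic thioredoxin reductase, lies on chromosome 10 (82833951 to 82897712, plus strand) and was at 147, 186 and 175 CPM in control and at 120, 119 and 127 CPM after neomycin. The groups did not overlap, and the neomycin libraries lay closer together than the control libraries. Txnrd1 fell by 0.47 on the log2 scale (SE 0.09, interval -0.67 to -0.28, adjusted p = 0.00243, edgeR), and by 0.40 with the length correction. Its mitochondrial counterpart Txnrd2 was at 10.6, 8.40 and 10.5 CPM in control and at 12.4, 13.2 and 13.8 CPM after neomycin, again without overlap. The rise of Txnrd2 was 0.41 ± 0.12 on the log2 scale (adjusted p = 0.0233, edgeR). This call was lost without control 2, neomycin 2 or neomycin 3 (adjusted p = 0.0950, 0.0770 and 0.0799), with library totals as the only scaling (0.0507) and with the length correction (log2 ratio 0.31).

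The thioredoxins themselves did not pass. Txn1, the cytosolic form and the most abundant of this group, was at 220, 265 and 296 CPM in control and at 241, 287 and 313 CPM after neomycin, with wide overlap. Mitochondrial Txn2 had a log2 ratio of 0.17 (adjusted p = 0.131, edgeR) and passed only without control 3 among the fits that left out a library (adjusted p = 0.0213). Srxn1, which repairs overoxidized peroxiredoxins and is a frequent NRF2 target, was at 29.4, 36.5 and 31.7 CPM in control and at 23.9, 28.2 and 31.9 CPM after neomycin. Its log2 fold change was -0.22 with an interval of -0.46 to 0.03, and neomycin 3 lay above control 1 and control 3. Txn1, Txn2 and Srxn1 lay at -0.14, 0.02 and -0.19 with the length correction.

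Taken as a group whose values were already known when it was drawn up, 7 of the best known NRF2 targets (Nqo1, Hmox1, Gclc, Gclm, Txnrd1, Srxn1 and Slc7a11) held 2 genes that fell and none that rose. This share of genes passing was about that of all genes tested, of which 29.0% passed and 16.1% were lower. The log2 ratios of 6 of the 7 were below 0, and their median was -0.23, or -0.20 with the length correction.

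Peroxiredoxins, thiol peroxidases that remove hydrogen peroxide, were higher in 3 of 6 cases, beside 12.9% of all genes tested (8.07% with the length correction). All 6 had log2 fold changes above 0, with a median of 0.29. Length correction left 2 of the 6 higher and a median of 0.15, and Prdx3 and Prdx5 turned below 0 (-0.01 and -0.10). Prdx4, the family member of the endoplasmic reticulum (ER), was the most changed. It lies on chromosome X (155323918 to 155340754, minus strand) and was at 146, 149 and 187 CPM in control and at 229, 272 and 275 CPM after neomycin. The lowest neomycin library was above the highest control library. Prdx4 rose 1.61-fold (log2 fold change 0.69 ± 0.11, interval 0.46 to 0.92, adjusted p = 0.000762, edgeR). With the length correction the log2 fold change was 0.43 (adjusted p = 0.00101).

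The abundant cytosolic peroxiredoxins rose less. Prdx1 was at 556, 634 and 700 CPM in control and at 735, 835 and 871 CPM after neomycin, without overlap, a rise of 1.29-fold (adjusted p = 0.0182, edgeR). Prdx2 was at 469, 512 and 578 CPM in control and at 639, 674 and 682 CPM after neomycin, a rise of 1.28-fold (adjusted p = 0.0126, edgeR). The groups were apart for both genes, by less than the range of the control libraries. Length-corrected log2 ratios were 0.22 for Prdx1 (adjusted p = 0.0522, edgeR) and 0.21 for Prdx2 (adjusted p = 0.0453, edgeR). The call for Prdx1 was lost without control 1, control 2, neomycin 2 or neomycin 3 (adjusted p = 0.0614, 0.0661, 0.0819 and 0.0784, edgeR), and that for Prdx2 without control 2 or neomycin 2 (0.0591 and 0.0617). Mitochondrial Prdx3 and Prdx5 and the 1-cysteine enzyme Prdx6 had log2 ratios of 0.15, 0.22 and 0.22 (adjusted p = 0.112, 0.172 and 0.0566, edgeR). Prdx6 passed without control 3 (0.0121) and with DESeq2 (0.0272), and Prdx5 without control 3 (0.0344), while the length-corrected value of Prdx6 was 0.09.

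Glutathione peroxidases held the largest rise of the set. Gpx7, an ER enzyme that passes oxidation on to protein folding, lies on chromosome 4 (108400390 to 108406961, minus strand). It was at 36.7, 33.5 and 37.3 CPM in control and at 60.1, 60.6 and 60.5 CPM after neomycin. The neomycin libraries were nearly identical and far above the control libraries. Gpx7 rose 1.68-fold (log2 fold change 0.75 ± 0.07, interval 0.60 to 0.91, adjusted p = 2.29e-05, edgeR), and by 0.45 on the log2 scale with the length correction (adjusted p = 0.00116).

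Its ER relative Gpx8, on chromosome 13 (113042753 to 113046410, minus strand), was at 109, 121 and 123 CPM in control and at 158, 177 and 171 CPM after neomycin. It rose 1.43-fold without overlap (adjusted p = 0.000560, edgeR), or by 0.24 on the log2 scale with the length correction (adjusted p = 0.0116). Prdx4, Gpx7 and Gpx8, the ER members of the peroxiredoxin and glutathione peroxidase families in the set, thus all rose. Their median log2 ratio was 0.69, or 0.43 with the length correction. This trio was put together with its values known. The microsomal Mgst1, which also reduces lipid peroxides and rose, was left among the other 39 genes. Among the other 39 genes, 6 rose and 2 fell, with a median of 0.11, beside 12.9% higher and 16.1% lower of all genes tested. Of these 39, 5 were higher and 7 lower with the length correction, and their median was then -0.10. The shares of all genes with that correction were 8.07% higher and 11.2% lower.

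Gpx4, which reduces lipid peroxides and is the main brake on ferroptosis, had the highest level per kilobase among the peroxidases of the set, while Prdx1 was higher in CPM. Gpx4 was at 515, 554 and 657 CPM in control and at 656, 809 and 865 CPM after neomycin, with control 3 just above neomycin 1. The rise of 1.35-fold (adjusted p = 0.0167, edgeR) was lost without control 1, control 2, neomycin 2 or neomycin 3 (adjusted p = 0.0519, 0.0761, 0.0772 and 0.0756), and the length-corrected log2 fold change was 0.16 (adjusted p = 0.156). Cytosolic Gpx1 had a log2 ratio of 0.23 (adjusted p = 0.0824, edgeR) and passed without control 3 (0.0114), but was at -0.07 with the length correction. Secreted Gpx3 had one of -0.11 (adjusted p = 0.286, edgeR), or -0.25 with the length correction (adjusted p = 0.00891).

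**Figure D3:**
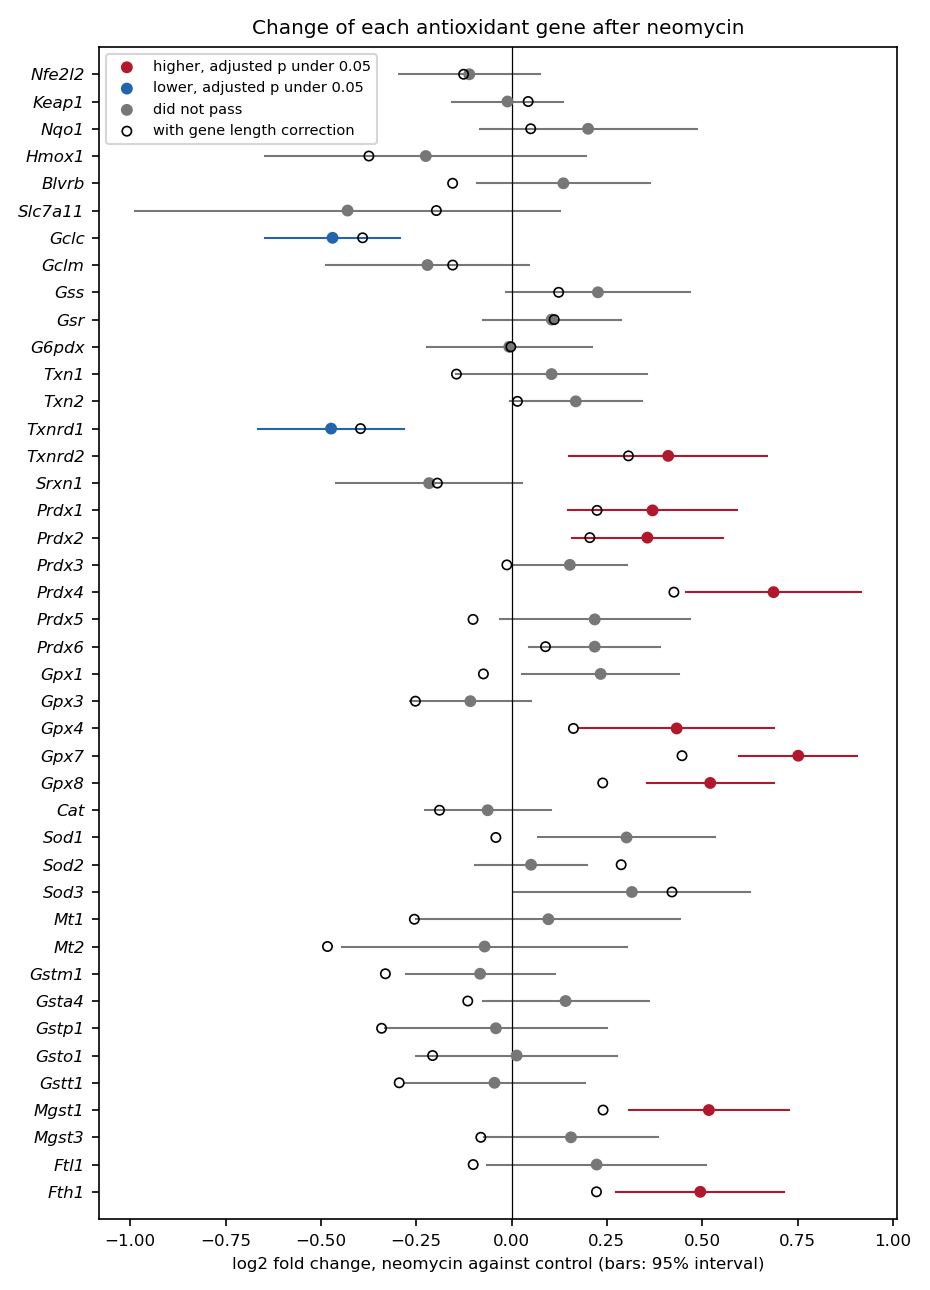
Log2 fold change of each of the 42 genes, neomycin against control, with its 95% interval (red, higher; blue, lower; grey, did not pass). Open circles give the length-corrected value. Gpx7 (0.75) and Prdx4 (0.69) lie farthest to the right and Gclc and Txnrd1 (both -0.47) farthest to the left, and most open circles of short genes lie left of the filled ones.

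Catalase and the superoxide dismutases did not pass. Sod1, the cytosolic copper and zinc enzyme, was the most abundant of them at 321, 353 and 429 CPM in control and 414, 457 and 487 CPM after neomycin. Control 3 lay above neomycin 1, and the log2 fold change was 0.30 with an interval of 0.07 to 0.53 (adjusted p = 0.0516, edgeR). Sod1 was at the edge of the threshold and passed in 10 of 18 alternatives, among them the fits without control 3 (0.00404) and without neomycin 1 (0.0338), while its sign turned with the length correction (-0.04). Mitochondrial Sod2 had a log2 ratio of 0.05 (adjusted p = 0.606, edgeR), and secreted Sod3 one of 0.32 (adjusted p = 0.116, edgeR). Both passed with the length correction, at 0.29 and 0.42 (adjusted p = 0.0167 and 0.0494). Cat, the peroxisomal catalase, had a log2 ratio of -0.06 with an interval of -0.23 to 0.10, and -0.19 with the length correction.

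Metallothioneins, which bind zinc and copper and scavenge radicals, varied mainly within the groups. Mt1 was at 66.8, 97.6 and 101 CPM in control and at 72.5, 100.2 and 111 CPM after neomycin. Mt2 was at 66.5, 103 and 97.8 CPM in control and at 63.6, 85.1 and 105 CPM after neomycin. For both genes library 1 was the lowest of its group. The log2 fold changes were 0.10 and -0.07 (adjusted p = 0.685 and 0.789, edgeR), and -0.26 and -0.48 with the length correction, where Mt2 passed (adjusted p = 0.0154).

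Of 7 glutathione transferases, which join glutathione to electrophiles, Mgst1 rose. This microsomal enzyme also reduces lipid peroxides, lies on chromosome 6 (138140316 to 138156755, plus strand) and was the most abundant of the group. Mgst1 was at 189, 203 and 240 CPM in control and at 277, 305 and 321 CPM after neomycin. Every neomycin library was above every control library. The rise was 1.43-fold (log2 fold change 0.52 ± 0.10, adjusted p = 0.00247, edgeR), or 0.24 on the log2 scale with the length correction (adjusted p = 0.0160). The cytosolic enzymes Gstm1, Gstp1, Gsto1 and Gstt1 lay between -0.08 and 0.01, and Gsta4 and microsomal Mgst3 at 0.14 and 0.16. None of these 6 passed, although Gsta4 and Mgst3 did without control 3 (adjusted p = 0.0134 and 0.0188, edgeR) and Gstm1, Gstp1 and Gstt1 were lower with the length correction (-0.33, -0.34 and -0.29). Gsta4, Mgst3 and Gsto1 then lay at -0.11, -0.08 and -0.21.

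Ferritin, the iron store of the cell, consists of a heavy chain that oxidizes iron and a light chain. The heavy chain gene Fth1, on chromosome 19 (9980598 to 9985098, plus strand), was at 972, 1084 and 1240 CPM in control and at 1480, 1549 and 1615 CPM after neomycin. The groups were clearly apart. Fth1 rose 1.41-fold (log2 fold change 0.49 ± 0.10, adjusted p = 0.00415, edgeR), or by 0.22 on the log2 scale with the length correction (adjusted p = 0.0319). The light chain gene Ftl1, the most abundant of all 42, was at 2300, 2625 and 3028 CPM in control and at 2559, 3224 and 3499 CPM after neomycin. These groups overlapped, and the log2 ratio of 0.22 had an interval of -0.06 to 0.51 (adjusted p = 0.227, edgeR) and turned to -0.10 with the length correction.

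**Figure D4:**
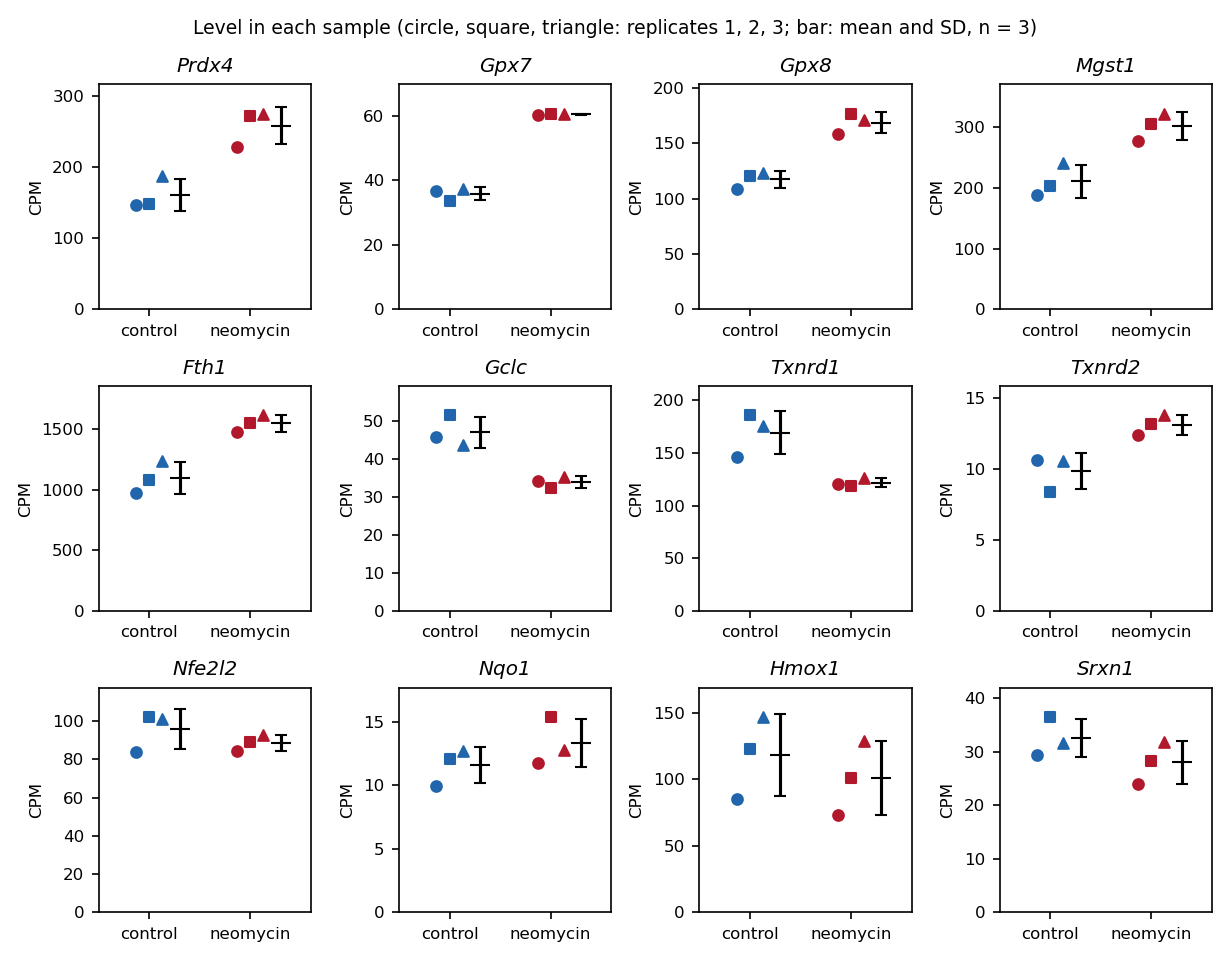
CPM of 12 antioxidant genes in each library, from 0, with the mean and SD of each group (n = 3). Control and neomycin points are apart for Prdx4, Gpx7, Gpx8, Mgst1, Fth1, Gclc, Txnrd1 and Txnrd2 and overlap for Nfe2l2, Nqo1, Hmox1 and Srxn1.

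Levels per kilobase of median transcript, written as RPKM (CPM divided by that length), spanned a wide range. In control, Ftl1 stood first at 3604 ± 496 RPKM (SD, n = 3), followed by Fth1 at 1183 ± 145, with no overlap of their spreads. Gpx4 (600 ± 76.8 RPKM) and Sod1 (574 ± 86.5 RPKM) came next, with spreads that overlapped. The spreads of Prdx1 (397 ± 45.3 RPKM), Prdx5 (379 ± 48.2 RPKM) and Prdx2 (336 ± 35.5 RPKM) also overlapped. These spreads are between libraries, and whether the genes differed within the same libraries was not tested. Gclm (8.68 ± 1.47 RPKM) and Nqo1 (7.47 ± 0.929 RPKM) were close to each other near the bottom. Txnrd2 (5.35 ± 0.678 RPKM), Sod3 (1.36 ± 0.0781 RPKM) and Slc7a11 (0.838 ± 0.352 RPKM) were the lowest. Nfe2l2 and Keap1 lay at 38.6 ± 4.20 and 31.6 ± 1.20 RPKM. Of the well known NRF2 targets, Gclc, Gclm, Srxn1, Nqo1 and Slc7a11 were thus among the lowest of the set in control, while Hmox1 and Txnrd1 lay at 75.6 ± 19.7 and 49.4 ± 5.94 RPKM. Gpx7 rose from 44.3 ± 2.52 to 74.6 ± 0.301 RPKM.

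Other genes of the pathway, outside the 42, were read from lists of 128 genes, of which 123 were tested. Of these, 28 rose and 16 fell, with a median log2 ratio of 0.09, beside 12.9% higher and 16.1% lower among all genes tested. With the length correction 13 rose and 16 fell, beside 8.07% and 11.2% of all genes. The total of 44 went to 26 without control 2 and to 28 without neomycin 2.

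Of 14 NRF2 partners and regulators tested, 6 fell and 1 rose, with a median of -0.22, beside 16.1% of all genes lower and 12.9% higher. With the length correction 3 fell and none rose, beside 11.2% lower and 8.07% higher of all genes. Small MAF proteins are the dimer partners of NRF2 at the ARE. Mafg fell from 14.1 ± 1.36 to 8.38 ± 1.32 CPM (log2 fold change -0.75, adjusted p = 0.00185, edgeR), and by 1.02 with the length correction. Maff fell from 59.5 ± 17.4 to 34.9 ± 9.19 CPM (log2 fold change -0.77, adjusted p = 0.0156, edgeR), though the groups overlapped and the call was lost without control 2 or control 3 (0.0646 and 0.0573) and with DESeq2 (0.0624). Maff fell by 0.86 with the length correction. After the values were seen, the remaining small MAF gene Mafk and the ARE repressor Bach1 were also looked at. Both fell, by 0.28 and 0.37 (adjusted p = 0.0293 and 0.00873, edgeR), and neither passed with the length correction (log2 ratios -0.24 and -0.12, adjusted p = 0.0551 and 0.272). Mafk also lost its call without control 2, control 3, neomycin 1 or neomycin 2 (0.108, 0.0708, 0.0891 and 0.0837). The other regulators that passed were Nfe2l3 and Gsk3b, which fell by 0.44 and 0.33, and Rbx1, which rose by 0.45. Their adjusted p-values were 0.0138, 0.0139 and 0.00142 (edgeR). With the length correction the log2 ratios were -0.54, -0.13 and 0.10, and only Nfe2l3 passed (adjusted p = 0.00262, edgeR).

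Among 22 further targets and NADPH-supplying enzymes, 4 rose and 4 fell, and 1 was higher and 4 lower with the length correction. Over all genes tested, 12.9% rose and 16.1% fell, or 8.07% and 11.2% with the length correction. Abcc1, a pump that exports glutathione conjugates, fell from 35.4 ± 1.48 to 23.4 ± 1.97 CPM (log2 fold change -0.60, adjusted p = 0.000557, edgeR), and by 0.33 on the log2 scale with the length correction (adjusted p = 0.0275), which is under 1.5-fold. Of 31 other glutathione genes, 6 rose and 1 fell, whereas 3 were higher and 4 lower with the length correction. The transferases Gsta1 and Gsta3 were higher by more than 1.5-fold but at low levels, 0.107 ± 0.0979 against 0.484 ± 0.258 CPM and 2.16 ± 0.426 against 3.52 ± 0.791 CPM. Gsta1 (adjusted p = 0.0487, edgeR) passed in 4 of 17 alternatives and in no fit that left out a library (0.0603 to 0.192), nor with the length correction (0.108). Gsta3 (adjusted p = 0.0402, edgeR) was lost without control 2, control 3, neomycin 2 or neomycin 3 (0.135, 0.0798, 0.0797 and 0.177) and with the length correction (0.181). The alpha-class transferases resemble each other in sequence, and how reads mapping to several places were counted was not stated.

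Of 23 genes listed under thiol repair, 11 were higher and 3 lower, with a median of 0.27, and 6 and 3 with the length correction. That list also held the thioredoxin inhibitor Txnip and selenoproteins such as Sepp1, both among the higher genes, so the count is not one of repair enzymes only. Shares over all genes tested were 12.9% higher and 16.1% lower. With the length correction these shares were 8.07% and 11.2%. Msrb3, a methionine sulfoxide reductase that is a known deafness gene, fell from 55.2 ± 2.63 to 32.7 ± 3.02 CPM (log2 fold change -0.76, adjusted p = 6.65e-05, edgeR). It fell by 0.81 with the length correction and passed in all 18 alternatives. Heme, iron and metal genes rose in 3 and fell in 2 of 18 cases, and in 1 and 2 cases with the length correction. Ncoa4, the receptor that delivers ferritin to lysosomes for iron release, fell from 74.4 ± 7.60 to 49.4 ± 1.27 CPM (log2 fold change -0.59, adjusted p = 0.000365, edgeR), and also in all 18 alternatives, by 0.49 with the length correction. Of 15 genes listed as superoxide and peroxide sources, 3 rose (Cyba, Noxo1 and Ncf4) and none fell. With the length correction 2 were higher, Noxo1 and Aox1, and Cyba no longer passed (log2 ratio 0.09, adjusted p = 0.378, edgeR). The 3 that rose encode oxidase subunits, and the list also held Pon2, Oxr1 and Ucp2, which are not oxidant-making enzymes. The catalytic genes Nox3, Nox4, Cybb, Xdh and Aox1 did not pass, though Aox1 was higher with the length correction. Ncf4, a subunit of the phagocyte NADPH oxidase, went from 0.468 ± 0.144 to 1.13 ± 0.271 CPM (log2 fold change 1.27, adjusted p = 0.0266, edgeR), beside the higher macrophage markers. That call was lost without control 1, control 3, neomycin 1 or neomycin 3 (0.0911, 0.0591, 0.0760 and 0.0870) and with the length correction (0.0597).

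Several of the antioxidant genes overlap a gene on the other strand: Gss with Acss2, G6pdx with Ikbkg, Prdx2 with Junb and Rnaseh2a, Prdx5 with Trmt112, Gpx8 with Cdc20b, Sod1 with Scaf4 and Gsto1 with Cfap43. The strand setting of the counting was not given in the sources used here, so reads of these neighbours cannot be told apart. Pseudogenes named after Prdx6 (1), Gpx4 (1) and Ftl1 (2) are annotated, and the levels of these genes and of the glutathione transferases are uncertain to that extent.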

How the data were processed

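RNA of 3 control and 3 neomycin explant pools was sequenced. The authors deposited whole-number read counts per gene symbol, made with Casava 1.8, trimmomatic 0.23, Hisat2 alignment to UCSC mm10 and HTSeq; strand and multimapping settings were not given in the sources used here. The counts were fitted with edgeR 4.0.16 (R 4.3.3; filterByExpr, TMM, glmQLFit, glmQLFTest), neomycin against control, with Benjamini-Hochberg adjustment over all 15988 genes tested. The standard error was the log2 fold change over the square root of F, and intervals were 95%. CPM used TMM library sizes. The study's thresholds, adjusted p under 0.05 and fold change over 1.5, were kept, while its test was DESeq2, here an alternative (1.42.0), as was limma-voom (3.58.1).

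Lengths, loci and overlaps came from GENCODE M21 on GRCm38, to which 23376 of 24421 symbols matched directly and 651 through an older symbol. The length correction fitted a lowess (span 0.3) of each library's log2 ratio on log2 median transcript length and used it as an offset. Promoter windows were RefSeq's. Replicates of a group differed by a mean chi-square of 13.7 to 46.7 per gene, so no library was a duplicate. The labels do not say that pools were independent beyond their numbering, and p-values then measure only the spread between these libraries. Counting error is small at these depths. The fit was tested on simulated data.

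The 42 genes, the role groups, and the pathway and marker lists were chosen with earlier results of these data known. Values in every sample were given for genes past both thresholds and, by role, for those of lowest adjusted p and highest mean level, and beyond this rule for the other genes that passed and for Slc7a11, Srxn1 and both metallothioneins, chosen after their values were seen. Pathway genes were named when past both thresholds, at most 4 per list, and markers by level. Mafk, Bach1, Nfe2l3, Gsk3b and Rbx1 were among the exceptions, named after their values were seen. Other scalings, filters, thresholds, tests, a replicate block, length corrections and leaving out each library were tried.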

Additional observations from a re-analysis of the deposited data

How the results depend on the processing

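Of the 42 log2 fold changes, those of the 11 genes that passed kept their direction under every alternative. The number of antioxidant genes that passed was 11 in edgeR, 13 in DESeq2 and in limma-voom, and 7 at an adjusted p under 0.01 (5 higher), where 2205 genes in all and 19 of the pathway genes passed; no member changed over 2-fold. Leaving out each library in turn gave 7 to 18 of the 42, 5 to 16 higher, 2 to 4 lower, 2 to 4 over 1.5-fold, 2518 to 5341 of all genes and 26 to 48 of the pathway genes. With the length correction 3061 genes in all, 7 members lower, 0 over 1.5-fold and 29 of the pathway genes passed; on the summed exons instead of the median transcript, an alternative chosen after seeing the data, 6 were lower and 0 over 1.5-fold.

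Control and neomycin libraries share replicate numbers. The deviations of same-numbered libraries from their group means correlated at 0.165, 0.0264 and 0.0949 over genes. Those of libraries with different numbers correlated at -0.129 to 0.0325, the highest being control 2 with neomycin 3. Nothing in the labels says that a number marks a shared litter or day, so the numbers were not taken as pairs. Whether same-numbered libraries share an origin was not tested. With the replicate number as a block, 20 of the 42 passed, 17 of them higher, and Hmox1 was lower (adjusted p = 0.0082, edgeR). Across all genes 6014 then passed, against 4629 without the block. With block and length correction 19 of the 42 passed, 10 of them lower and 0 over 1.5-fold. All genes passing then numbered 3633, against 3061 with the length correction alone. DESeq2 with the block gave 18 of the 42, of which 15 were higher. It gave 5278 of all genes, against 4971 in DESeq2 without the block.

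Direction turned only in genes that had not passed. With the length correction the log2 ratios became 0.043 for Keap1, -0.15 for Blvrb, -0.14 for Txn1, -0.012 for Prdx3, -0.10 for Prdx5, -0.074 for Gpx1, -0.041 for Sod1, -0.26 for Mt1, -0.115 for Gsta4, -0.21 for Gsto1, -0.081 for Mgst3 and -0.10 for Ftl1. With the replicate block and length correction these were 0.044, -0.16, -0.14, -0.012, -0.10, -0.073, -0.039, -0.25 (adjusted p = 0.0113, edgeR), -0.11, -0.20, -0.078 and -0.10, and on summed exons 0.086, -0.095, -0.20, -0.067, -0.0076, -0.067, -0.091, -0.17, -0.17, -0.26, -0.14 and -0.10, besides -0.0027 for Nqo1. Upper-quartile scaling gave 0.010 for Keap1 and 0.015 for G6pdx, and library totals alone -0.017 for Sod2 and -0.055 for Gsto1. Leaving out a library gave ranges of -0.033 to 0.029 for Keap1, -0.12 to 0.090 for G6pdx, -0.064 to 0.26 for Mt1, -0.26 to 0.098 for Mt2, -0.13 to 0.014 for Gstm1, -0.18 to 0.095 for Gstp1, -0.11 to 0.097 for Gsto1 and -0.13 to 0.038 for Gstt1. The cause of these changes was not tested. Every antioxidant gene had at least 178 reads in each library, so with 3 libraries per group the spread between libraries set the intervals.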

Other observations

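Library 1 was the lowest of its group in both control and neomycin for 28 of the 42 antioxidant genes (66.7%), against 19.6% of all genes tested. Library 2 was the lowest in both groups for 1 of the 42 (2.38%, against 8.73% of all genes) and library 3 for none (16.2% of all genes). The genes include Hmox1, Mt1, Mt2, Txn1, Prdx1, Ftl1 and Fth1. The antioxidant genes are not independent of each other, and no test was made of this pattern.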
